A study of Danio rerio with 6 samples.

Results

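Transcripts of 10 circadian clock genes were compared between testes of zebrafish exposed to polystyrene nanoplastics and testes of control fish. The genes were chosen by name from 3 families. This choice, and that of the further lists below, was made with earlier results of these data known. The 10 comprise the period genes per1a, per1b, per2 and per3, the Rev-erb genes nr1d1, nr1d2a and nr1d2b, and the PAR-bZIP genes tefa, dbpa and hlfa. All 10 were found among the 32520 genes of the count table, and all 10 passed the filter on low counts, as did 26108 genes in all. The reference table names 7 of them under the listed symbol and the other 3 under a family symbol. It gives 2 identifiers as PER1, without saying which is per1a and which per1b, so they are told apart here by identifier. It gives 1 identifier as NR1D2, which is taken as nr1d2b because nr1d2a has a row of its own.

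The exposed group held testes of 3 adult wild-type zebrafish (Danio rerio) kept for 96 h in water to which polystyrene nanoplastics, very small plastic particles, were added every 24 h. The control group held testes of 3 adult wild-type zebrafish whose water received none. Particle size, dose, age of the fish and time of day of dissection are not stated in the labels. One animal gave each library, which takes its name from the replicate and animal numbers (exposed 2-2, 3-1 and 3-3, and control 1-2, 2-2 and 3-1), and exposed 3-1 and 3-3 share a replicate number whose meaning is not given. Exposed libraries held from 96029888 to 108273937 counts and control libraries from 76205591 to 86765952 counts. The 10 clock genes took from 49186 to 110447 counts in an exposed library and from 27489 to 41139 in a control library.

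The circadian clock is a feedback loop of transcription that runs in most tissues. CLOCK and BMAL proteins bind together to E-box elements and switch on the period and cryptochrome genes, whose proteins return to the nucleus and repress them. Rev-erb receptors, encoded by the nr1d genes, repress bmal genes and are opposed there by ROR receptors. The PAR-bZIP factors Tef, Dbp and Hlf activate genes through D-box elements, where Nfil3 acts as a repressor. In zebrafish, cells of peripheral tissues respond to light directly, and per2 is one of the genes that light induces. Levels of these transcripts swing over the day, so that 1 measurement per animal gives the level at 1 unknown clock time. Time of day was not tested.

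The exposed libraries also differed from the controls in markers of the cell types of the testis and of other tissues. Germ cell markers were present in every library, with the 6 measured of 7 listed summing to between 2044 and 3328 CPM (counts per 1000000 counts, scaled by TMM) in exposed libraries and between 4231 and 4827 CPM in control libraries. The 3 of 4 measured Sertoli cell markers summed to between 1173 and 1656 CPM in exposed libraries and between 1953 and 2159 CPM in control libraries. All 5 Leydig cell markers were measured and summed to between 1415 and 2449 CPM in exposed libraries and between 2083 and 4257 CPM in control libraries. The 15 of 15 measured epidermal markers summed to 15595, 11239 and 1446 CPM in exposed 2-2, 3-1 and 3-3, against 822 to 2471 CPM in control libraries, and anxa1c was at 0 in control 3-1. The 6 of 10 measured macrophage and neutrophil markers summed to between 2172 and 4995 CPM in exposed libraries and between 775 and 1229 CPM in control libraries. In every library cd74a and cd74b made up most of that sum. By comparison, csf1ra had 33.1, 26.3 and 34.6 CPM in exposed 2-2, 3-1 and 3-3, against 19.4 to 22.2 CPM in controls. The groups overlapped for lyz and were separate for the other measured markers of this list. The 4 of 7 measured red blood cell markers summed to between 3072 and 4391 CPM in exposed libraries and between 829 and 2135 CPM in control libraries. Most of this sum was hbaa1. The groups were separate for hbaa1 and cahz and overlapped for hbaa2 and alas2. The 7 of 7 measured liver markers summed to 17868 CPM in control 3-1, against 878 CPM in control 1-2 and 189 CPM in control 2-2. In exposed libraries they summed to between 767 and 4963 CPM. The 3 of 8 measured retina and pineal markers summed to at most 10.6 CPM in any library, and opn1mw1 was at 0 in exposed 2-2, control 1-2 and control 3-1. More cells of a type and more RNA per cell cannot be told apart in these whole-tissue libraries, and the part of other cell types in the results below was not tested.

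The comparison asked whether clock transcripts of the testis differ after short exposure to polystyrene nanoplastics. None of the 10 genes passed at a Benjamini-Hochberg adjusted p of 0.05 in edgeR's quasi-likelihood test over all genes, where the share called among all genes was 0%. The lowest adjusted p was 0.17, for hlfa. All 10 log2 fold changes, exposed over control, lay above 0, as did 52.1% of all genes. The median of the 10 was 0.62, against 0.04 over all genes. Genes and lists were chosen with earlier results known, so contrasts with all genes, here and below, are descriptions and not tests. The gene nearest to 0, dbpa, had -0.025 under upper quartile scaling, and without exposed 2-2 it and NR1D2 were below 0, leaving 8 of 10 above. At an unadjusted p under 0.05 stood hlfa, nr1d2a, NR1D1 and tefa, 4 of 10 genes, where 9.68% of all genes did so on the higher side. This count was 2 without exposed 2-2, control 2-2 or control 3-1, where the share of all genes on the higher side was 6.32%, 7.19% and 9.23%. It was 3 without control 1-2 (7.3% of all genes), 4 without exposed 3-1 (7.56%) and 6 without exposed 3-3 (11.2%). The median of the 10 genes was 0.15 without exposed 2-2 and 0.94 without exposed 3-3. For hlfa and nr1d2a the exposed and control libraries did not overlap in CPM, 2 of 10 genes, against 12.8% of all genes on the higher side. DESeq2 called the same 2 genes (adjusted p = 0.00703 for hlfa and 0.0136 for nr1d2a), where it called 5.21% of all genes higher.

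**Figure D1:**
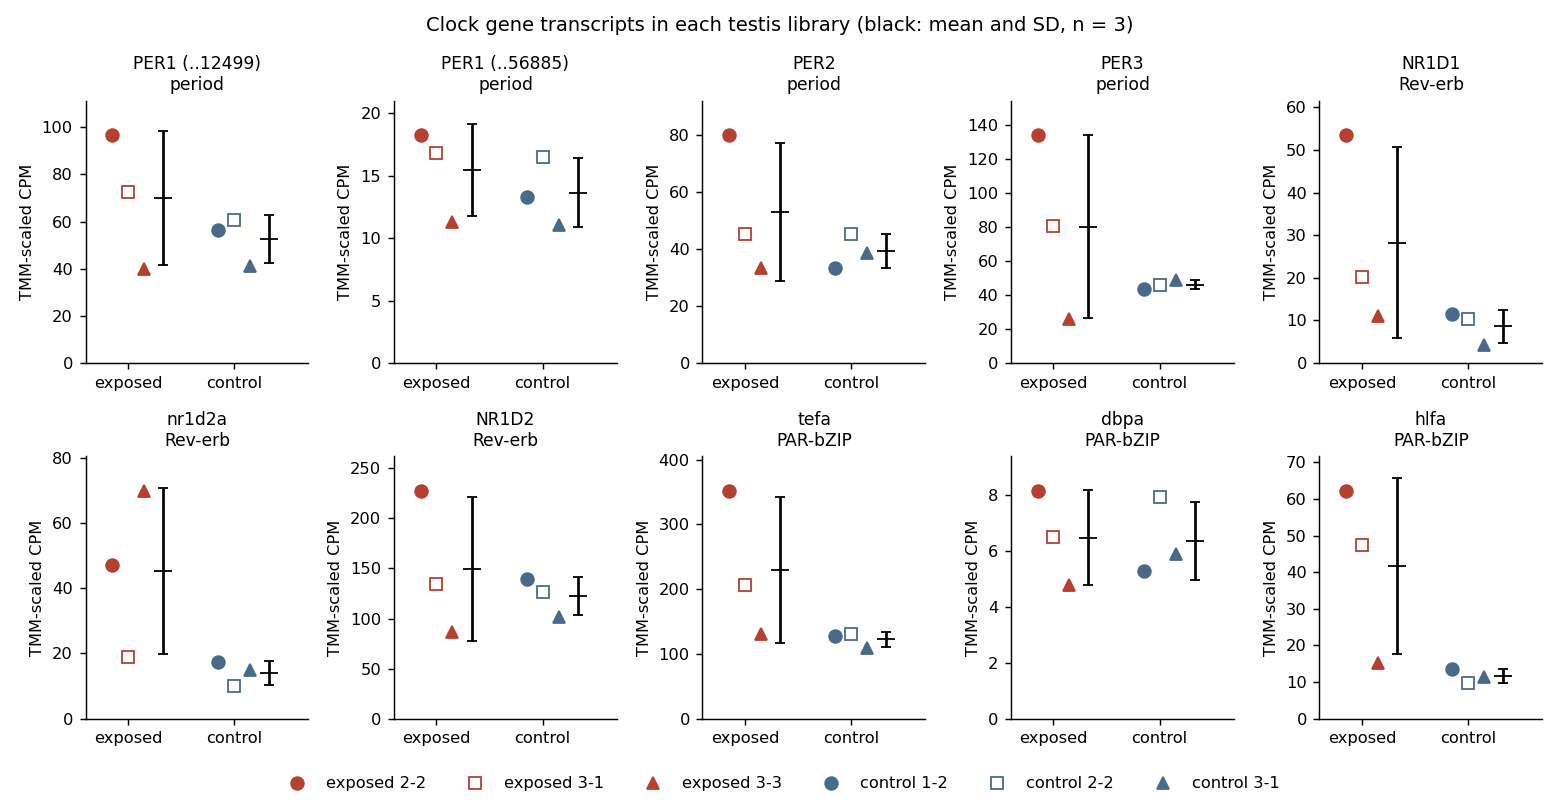
TMM-scaled counts per 1000000 counts (CPM, vertical axes from 0) of the 10 clock genes in each of the 3 exposed and 3 control libraries, with the mean and SD of each group in black. Exposed 2-2 is the highest library for 9 of the 10 genes, and the groups are separate for nr1d2a and hlfa.

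Period genes encode the repressors of the loop. PER3 (ENSDARG00000010519) had 134, 80.7 and 26.0 CPM in exposed 2-2, 3-1 and 3-3, against 43.4, 46.0 and 48.6 CPM in control 1-2, 2-2 and 3-1. Exposed 2-2 and 3-1 lay above every control library and exposed 3-3 below every one, so the exposed group surrounded the controls. The exposed mean was 80.2 ± 54.0 CPM and the control mean 46.0 ± 2.60 CPM (SD, n = 3 each), with a log2 fold change of 0.80 ± 0.52 (SE; edgeR adjusted p = 0.498). The highest library of the group exceeded the lowest 5.15-fold in exposed testes and 1.12-fold in control testes.

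PER2 (ENSDARG00000034503), the light-induced period gene, had 79.9, 45.1 and 33.3 CPM in exposed 2-2, 3-1 and 3-3, against 33.4, 45.3 and 38.6 CPM in control 1-2, 2-2 and 3-1. Only exposed 2-2 lay outside the range of the controls by more than 1 CPM. Its log2 fold change was 0.43 ± 0.33 (adjusted p = 0.584), which without exposed 2-2 was 0.0026. PER1 (ENSDARG00000012499) had 96.7, 72.6 and 40.1 CPM in exposed 2-2, 3-1 and 3-3, against 56.4, 60.5 and 41.1 CPM in control 1-2, 2-2 and 3-1. The first 2 of these exposed libraries were above all controls and the third below them, giving a log2 fold change of 0.41 ± 0.33 (adjusted p = 0.61). For the other PER1 (ENSDARG00000056885) the levels were 18.2, 16.8 and 11.2 CPM in exposed 2-2, 3-1 and 3-3, against 13.3, 16.5 and 11.1 CPM in control 1-2, 2-2 and 3-1. The groups overlapped, with a log2 fold change of 0.18 ± 0.32 (95% interval from -0.55 to 0.91, adjusted p = 0.843).

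Rev-erb genes encode nuclear receptors that repress their targets. NR1D1 (ENSDARG00000033160), encoding Rev-erb alpha, had 53.5, 20.2 and 11.1 CPM in exposed 2-2, 3-1 and 3-3, against 11.5, 10.2 and 4.26 CPM in control 1-2, 2-2 and 3-1. Exposed 3-3 was within the control range, and control 3-1 was the lowest of all 6. The means were 28.3 ± 22.3 CPM in exposed testes and 8.66 ± 3.86 CPM in control testes, and the log2 fold change was 1.71 ± 0.63 (95% interval from 0.23 to 3.18, edgeR adjusted p = 0.251). Without exposed 2-2 the log2 fold change was 0.85 (adjusted p = 0.573).

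The paralogs nr1d2a and NR1D2, both encoding forms of Rev-erb beta, did not share a pattern over the exposed libraries. The level of nr1d2a (ENSDARG00000003820) was 47.0, 18.8 and 69.9 CPM in exposed 2-2, 3-1 and 3-3, against 17.2, 9.89 and 14.9 CPM in control 1-2, 2-2 and 3-1. All exposed libraries were above all controls, and the highest was exposed 3-3, the only case among the 10 genes in which exposed 2-2 was not the highest. The means were 45.3 ± 25.6 CPM in exposed testes and 14.0 ± 3.75 CPM in control testes, a 3.23-fold ratio, with a log2 fold change of 1.69 ± 0.47 (edgeR adjusted p = 0.175). NR1D2 (ENSDARG00000009594) had 228, 135 and 86.3 CPM in exposed 2-2, 3-1 and 3-3, against 139, 126 and 102 CPM in control 1-2, 2-2 and 3-1. One exposed library lay above the controls, one among them and one below, and the log2 fold change of 0.29 ± 0.35 (adjusted p = 0.751) was -0.15 without exposed 2-2. The log2 ratio of nr1d2a counts to NR1D2 counts within a library was -2.28, -2.84 and -0.30 in exposed 2-2, 3-1 and 3-3, against -3.01, -3.67 and -2.77 in control 1-2, 2-2 and 3-1. Exposed 3-1 lay among the controls for this ratio, and the difference of the means, 1.34, was not separated from the spread between animals (two-sided exact permutation test, p = 0.2, adjusted over 4 such ratios 0.4, where the design allows no p below 0.1). These ratios were chosen after the values were seen.

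PAR-bZIP genes encode activators of D-box genes. The gene hlfa (ENSDARG00000074752) had 62.3, 47.3 and 15.3 CPM in exposed 2-2, 3-1 and 3-3, against 13.7, 9.81 and 11.4 CPM in control 1-2, 2-2 and 3-1. The groups did not overlap, although exposed 3-3 lay close to control 1-2. The means were 41.6 ± 24.0 CPM in exposed testes and 11.6 ± 1.95 CPM in control testes, a 3.58-fold ratio, and the log2 fold change was 1.84 ± 0.48 (95% interval from 0.73 to 2.95, edgeR adjusted p = 0.17). The log2 fold change was 1.43 without exposed 2-2 (edgeR adjusted p = 0.377). Without exposed 3-3 it was 2.24 and passed (edgeR adjusted p = 0.0243), in a fit that called 396 of 26635 genes.

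The level of tefa (ENSDARG00000039117) was 352, 207 and 131 CPM in exposed 2-2, 3-1 and 3-3, against 127, 131 and 109 CPM in control 1-2, 2-2 and 3-1. Exposed 2-2 and 3-1 were above the controls, and exposed 3-3 stood level with control 2-2. The log2 fold change was 0.91 ± 0.35 (95% interval from 0.10 to 1.72, edgeR adjusted p = 0.258), which without exposed 2-2 was 0.46. Its paralog tefb kept a nearly fixed proportion to it, with log2 ratios of tefa to tefb counts between 2.42 and 2.64 in exposed libraries and between 2.32 and 2.50 in control libraries (difference of the means 0.09, exact permutation test p = 0.5, adjusted over the 4 ratios 0.667). For dbpa (ENSDARG00000063014), the gene with the smallest fold change of the 10, the levels were 8.15, 6.48 and 4.76 CPM in exposed 2-2, 3-1 and 3-3, against 5.27, 7.93 and 5.88 CPM in control 1-2, 2-2 and 3-1. The groups overlapped through most of their range, and the log2 fold change of 0.02 ± 0.41 had a 95% interval from -0.91 to 0.96 (adjusted p = 0.988). The log2 ratio of dbpa to dbpb counts averaged -3.62 ± 0.47 in exposed testes and -3.88 ± 0.63 in control testes (SD, n = 3 each; exact permutation test p = 0.7, adjusted over the 4 ratios 0.7).

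**Figure D2:**
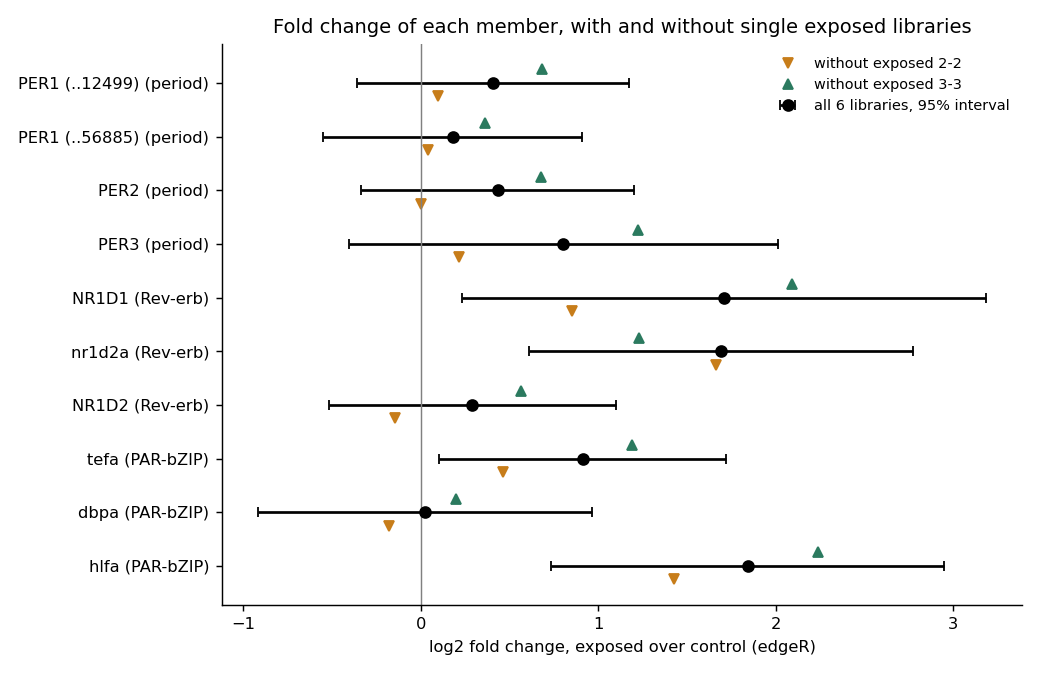
Log2 fold change, exposed over control, of each of the 10 genes with its 95% interval from all 6 libraries (black), and the value without exposed 2-2 (downward triangles) and without exposed 3-3 (upward triangles). For all genes but nr1d2a the value is lower without exposed 2-2 and higher without exposed 3-3; for nr1d2a it is 1.66 and 1.23, both below the 1.69 from all libraries.

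For these genes the exposed animals differed from each other more than the controls did. Set against the mean of the controls for each gene, the median ratio over the 10 genes was 2.46 in exposed 2-2, 1.36 in exposed 3-1 and 0.839 in exposed 3-3, against 1.05, 1.11 and 0.908 in control 1-2, 2-2 and 3-1. Over all tested genes with a control mean above 0, the same median lay between 0.945 and 0.981 in exposed libraries and between 0.957 and 0.987 in control libraries. Exposed 2-2 was the highest of the 6 libraries for 9 of the 10 genes, and for 23.3% of all genes. Levels were ordered exposed 2-2 above 3-1 above 3-3 for 9 of the 10 genes, and for 20% of all genes. Exposed 3-3 was the lowest of the 6 libraries for 5 of the 10 genes (PER1 ENSDARG00000012499, PER2, PER3, NR1D2 and dbpa), and for 11% of all genes. The coefficient of variation was larger in exposed than in control testes for each of the 10 genes, and for 52.4% of all genes. It was 67.3% in exposed and 5.66% in control testes for PER3, and 49.0% in exposed and 9.63% in control testes for tefa. Summed epidermal markers had the same order in the exposed libraries. In exposed 3-3 their sum, most of it krt91 and krt4, lay within the range of the controls, but most single markers did not. There krt5 had 179 CPM, against 20.1 to 30.2 CPM in controls. Also above every control there were krt17, epcam, cldne, cldni, AGR2, anxa1c, evpla and PPL. Within the control range were krt4 (279 CPM, against 223 to 589 CPM), krt91, krt92, cyt1 and TP63, and cyt1l was below it. The order also held for summed macrophage and neutrophil markers. They had 4995, 2700.0 and 2172 CPM in exposed 2-2, 3-1 and 3-3, all above the controls. Among them, cd74a and cd74b had the order. Highest in exposed 3-3 were csf1ra, marco and lyz, and CORO1A was lower in exposed 3-1 than in 3-3. Summed Leydig cell markers (2449, 1561 and 1415 CPM) and retina and pineal markers (10.6, 9.40 and 2.22 CPM) had this order as well. Singly, STAR, CYP17A1 and GNAT2 had it, and cyp11c1, insl3, hsd3b1, GNAT1 and opn1mw1 did not. The sums of germ cell, Sertoli cell, red blood cell and liver markers did not have it. The part of these cell types in the order of the clock genes was not tested. In exposed 3-3, 4 of the 10 clock genes lay above the control mean and 6 below it, with nr1d2a at 4.99 times that mean.

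The rest of the clock was read from the same fit, in 56 further genes of the loop and its outputs, of which 0 passed over all genes in edgeR (lowest adjusted p = 0.156). Of these, 37 lay above 0 and 19 below, with a median log2 fold change of 0.34. At an unadjusted p under 0.05, 12 were on the higher side and 1 on the lower side, where the shares among all genes were 9.68% and 6.79%. DESeq2 called 4 of them higher, namely nfil3-6, BHLHE40, cry3a and KLF9, which is 7.14% of the 56, near the 5.21% of all genes that it called higher. Exposed 2-2 was the highest library for 23 of the 56 (41.1%), against 23.3% of all genes. Exposed 3-3 was the lowest for 6 (10.7%), against 11% of all genes, and control 3-1 for 24 (42.9%), against 19.7%. The coefficient of variation was larger in exposed than in control testes for 28 of the 56 (50%), near the 52.4% of all genes. The order exposed 2-2 above 3-1 above 3-3 held for 24 of the 56 (42.9%), against 20% of all genes. Set against the control mean of each gene, their median ratio was 1.38, 1.12 and 0.989 in exposed 2-2, 3-1 and 3-3. In control libraries it lay between 0.888 and 1.03.

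**Figure D3:**
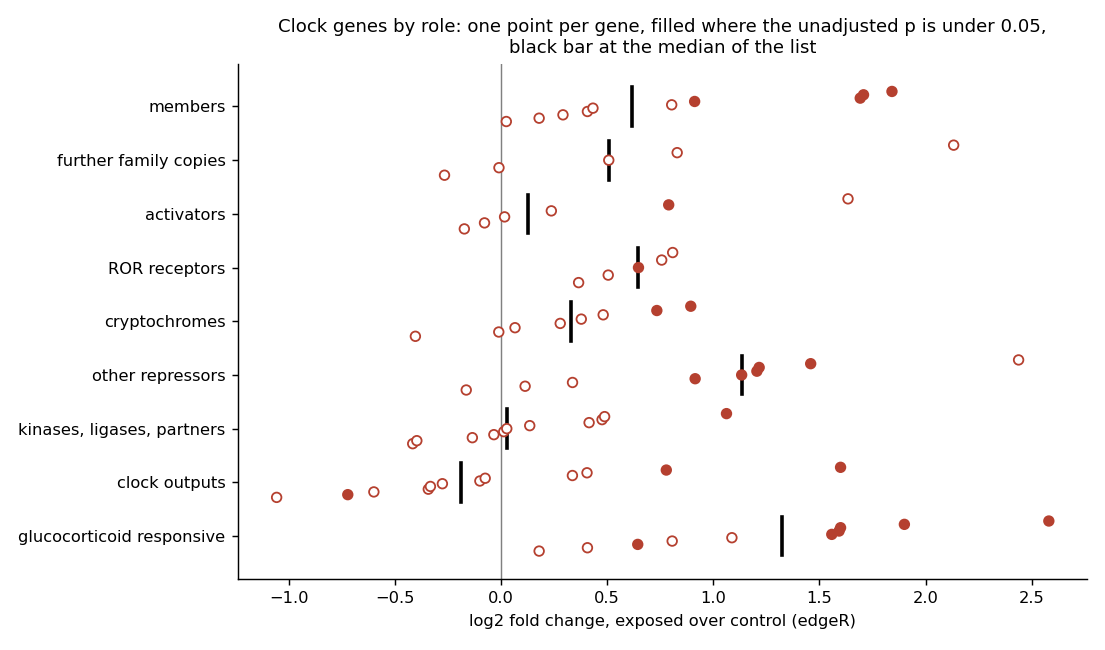
Log2 fold changes, exposed over control, of clock genes grouped by role and of a list of glucocorticoid responsive genes. Each list has 1 point per gene, filled where the unadjusted edgeR p was under 0.05, and a black bar at its median. KLF9 and both PER1 genes are drawn in each list that holds them. Among the lists drawn, with the 10 genes of the 3 families as 1 list, medians are highest for the glucocorticoid responsive genes (1.32) and the other repressors (1.13) and lowest for the clock outputs (-0.19).

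Of 6 activators of the loop, 4 lay above 0, with a median log2 fold change of 0.13. The 2 genes named BMAL1, singled out after their values were seen as the targets of Rev-erb receptors, had log2 fold changes of -0.08 ± 0.21 (ENSDARG00000006791) and 0.02 ± 0.40 (ENSDARG00000035732), with adjusted p = 0.902 and 0.993. The first had 26.8, 31.5 and 29.5 CPM in exposed 2-2, 3-1 and 3-3, against 31.2, 32.4 and 29.2 CPM in control 1-2, 2-2 and 3-1. The log2 ratio of NR1D1 counts to the summed BMAL1 counts was 0.60, -0.99 and -1.78 in exposed 2-2, 3-1 and 3-3, against -1.89, -1.86 and -3.18 in control 1-2, 2-2 and 3-1. All exposed libraries were above all controls for this ratio, by a narrow margin in exposed 3-3 (exact permutation test p = 0.1, the smallest this design can give; adjusted over the 4 ratios 0.4). CLOCK (ENSDARG00000003631) had 26.2, 21.6 and 19.5 CPM in exposed 2-2, 3-1 and 3-3, against 14.9, 13.9 and 10.2 CPM in control 1-2, 2-2 and 3-1, with separate groups and a log2 fold change of 0.79 ± 0.28 (adjusted p = 0.232). The other CLOCK (ENSDARG00000011703) had a log2 fold change of 0.24 ± 0.39, and npas2, a relative of CLOCK, one of 1.63 ± 0.97 (adjusted p = 0.455).

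ROR receptors, which act on the same elements as the Rev-erbs, all lay above 0, 5 of 5, with a median log2 fold change of 0.65 and adjusted p of at least 0.279. The values were 0.65 ± 0.26 for rorcb, 0.81 ± 0.38 for rorab and 0.50 ± 0.32 for rorca. Of 8 cryptochrome genes, 6 lay above 0, with a median of 0.33. The level of cry3a (ENSDARG00000069074) was 253, 236 and 172 CPM in exposed 2-2, 3-1 and 3-3, against 106, 126 and 124 CPM in control 1-2, 2-2 and 3-1. Its groups were separate, at a log2 fold change of 0.89 ± 0.23 (adjusted p = 0.166 in edgeR and 0.0157 in DESeq2). One of the 2 genes named CRY1 (ENSDARG00000045768) had 133, 113 and 60.4 CPM in exposed 2-2, 3-1 and 3-3, against 60.8, 64.3 and 59.6 CPM in control 1-2, 2-2 and 3-1. Exposed 3-3 stood among the controls, and the log2 fold change was 0.73 ± 0.30 (adjusted p = 0.277). The other CRY1 (ENSDARG00000011583), named after its value was seen, had a log2 fold change of -0.40 ± 0.31, and cry3b one of 0.48 ± 0.22.

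Among 9 further repressors, 8 lay above 0. BHLHE40 (ENSDARG00000004060), also known as Dec1, which competes with CLOCK and BMAL at E-boxes, had 228, 184 and 78.6 CPM in exposed 2-2, 3-1 and 3-3, against 50.9, 61.5 and 66.0 CPM in control 1-2, 2-2 and 3-1. The groups were separate with the same order of exposed libraries, at a log2 fold change of 1.46 ± 0.38 (adjusted p = 0.167 in edgeR and 0.00741 in DESeq2). Without exposed 3-3 it was 1.79 and passed in edgeR (adjusted p = 0.0285), in the fit that called 396 of 26635 genes. Nfil3 proteins act at the D-box elements of the PAR-bZIP factors. The gene nfil3-6 (ENSDARG00000087188) had 52.1, 51.6 and 68.5 CPM in exposed 2-2, 3-1 and 3-3, against 18.1, 25.4 and 30.6 CPM in control 1-2, 2-2 and 3-1. Here exposed 3-3 was the highest library, the log2 fold change was 1.22 ± 0.26 (adjusted p = 0.156), and NFIL3 had one of 1.13 ± 0.39 (adjusted p = 0.221).

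Of 11 genes listed as kinases, ubiquitin ligases and partners of period and cryptochrome, 7 lay above 0 and the median was 0.03. The log2 fold change was -0.42 ± 0.24 for tipin and -0.40 ± 0.24 for TIMELESS (edgeR adjusted p = 0.433 and 0.458). Of 12 output genes, 4 lay above 0. KLF9, a zinc finger factor under both clock and glucocorticoid control, had 27.2, 45.2 and 40.1 CPM in exposed 2-2, 3-1 and 3-3, against 20.9, 9.11 and 7.09 CPM in control 1-2, 2-2 and 3-1. Its groups were separate, with a log2 fold change of 1.60 ± 0.44 (adjusted p = 0.172). The values were 0.78 ± 0.27 for lonrf1 and -0.72 ± 0.31 for one of the 2 genes named NAMPT (ENSDARG00000076694). Of 5 further copies of the 3 families, 3 lay above 0 and 2 below, with a median log2 fold change of 0.51. At an unadjusted edgeR p under 0.05 stood 0 of the 5. The log2 fold changes were 0.83 ± 0.38 for tefb, 2.13 ± 1.67 for HLF and -0.27 ± 0.26 for dbpb (lowest edgeR adjusted p = 0.327). HLF had from 86 to 215 counts in exposed libraries and from 0 to 84 in control libraries, and the groups overlapped.

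Transcription of per1 responds to glucocorticoids in mammals. The 10 genes listed for such a response, KLF9 and both PER1 genes among them, had a median log2 fold change of 1.32. All 10 lay above 0, and none passed in edgeR (lowest adjusted p = 0.0882, for DUSP1). DUSP1 passed in edgeR without a filter on low counts (adjusted p = 0.0385), with the bias-adjusted method (adjusted p = 0.0252) and without exposed 3-3 (adjusted p = 0.0221), where ZBTB16 also passed (adjusted p = 0.0285). These fits called 12 of 29681, 70 of 26108 and 396 of 26635 genes, in that order. DESeq2 called 5 of the 10 higher, namely DUSP1 (adjusted p = 2.77e-12), tsc22d3, zbtb16b, KLF9 and ZBTB16, against 5.21% of all genes. DUSP1, a phosphatase of MAP kinases, had 219.7, 291 and 405 CPM in exposed 2-2, 3-1 and 3-3, against 38.8, 53.8 and 60.6 CPM in control 1-2, 2-2 and 3-1. The gene tsc22d3, encoding the glucocorticoid-induced leucine zipper, had 79.3, 58.2 and 118 CPM in exposed 2-2, 3-1 and 3-3, against 20.7, 29.2 and 18.6 CPM in control 1-2, 2-2 and 3-1. Both placed exposed 3-3 highest, as did FKBP5 and sgk1. Both PER1 genes, ZBTB16, zbtb16b and NR3C1 had their lowest exposed value there. FKBP5, sgk1 and NR3C1 were named after their values were seen. Of the 10 genes, 4 were highest in exposed 2-2, 2 in exposed 3-1 and 4 in exposed 3-3. The log2 fold change of zbtb16b was 1.59 ± 0.34 (edgeR adjusted p = 0.153). The part of glucocorticoids in these values was not tested.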

How the data were processed

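Raw counts were deposited by the authors in 1 table, as whole read numbers for each Ensembl gene and library. Per the submitters' processing notes, reads were aligned with STAR to GRCz11. No label names the counting tool, annotation release or use of strand, so the division of reads between paralogs and overlapping genes is unknown. Per the labels' protocols, RNA was extracted with Trizol and libraries were poly(A)-enriched. Columns were matched by description and groups taken from titles, with 0 columns left out. Even numbers made up between 66.8% and 75.1% of the counts from 10 to 99, and no source says whether a read pair was counted once or per mate. No 2 libraries agreed within sampling noise (lowest chi-square over genes 156 per degree of freedom).

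Genes were filtered with filterByExpr, scaled by TMM and tested in R 4.3.3 by the two-sided quasi-likelihood test of edgeR 4.0.16 (glmQLFit with robust = TRUE), with group as the only term and Benjamini-Hochberg adjustment over 26108 genes. SEs are the size of the log2 fold change over the square root of F. A count of 3 equals between 0.0277 and 0.0394 CPM before scaling. The procedure was tested on simulated data. Alternatives were DESeq2 1.42.0, limma 3.58.1 voom, other scalings and filters, a fit that was not robust, a bias-adjusted quasi-likelihood method, blocking on the replicate number, leaving out single libraries and, added after seeing the data, halved counts. Members and lists were chosen with earlier results of these data known. Of the lists, the text names genes that pass and up to 3 per list with the smallest p, except 1 gene that is not reported here. A listed name found only under a symbol shared by paralogs took all identifiers of that symbol.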

Additional observations from a re-analysis of the deposited data

How the results depend on the processing

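Over 17 alternatives, the log2 fold changes of the 10 genes kept their direction and stayed on the same side of the adjusted threshold in 161 of 170 cases, passed it in 3 (nr1d2a and hlfa in DESeq2, hlfa without exposed 3-3) and changed sign in 6. The sign changes were those of dbpa, at -0.0248 under upper quartile scaling, at -0.0195 with the replicate block and from -0.18 to 0.20 with single libraries left out, and of NR1D2, from -0.15 to 0.57 with single libraries left out. The median log2 fold change of the 10 genes ran from 0.15 without exposed 2-2 to 0.94 without exposed 3-3. DESeq2 called 1700 genes, 2 of the 10 and 4 of the 56 further clock genes. With single libraries left out, edgeR called from 0 to 396 genes, from 0 to 1 of the 10 and from 0 to 1 of the 56, the highest counts all without exposed 3-3. Over all genes it called 1 with relative log expression scaling, 1 with upper quartile scaling, 1 with library totals, 12 without a filter, 70 with the bias-adjusted method and 1 with halved counts. The replicate block, in which control 1-2 carries no weight, called 5 genes and 0 of the 10. Exposed and control libraries with the same number did not deviate together, so the numbers were not taken as pairs. Pearson r across genes was -0.01 for exposed 2-2 with control 2-2, and 0.02 for exposed 3-1 and -0.03 for exposed 3-3 with control 3-1. Whether exposed 3-1 and 3-3, which share a number, deviated together was not tested.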
